A study of Mus musculus with 4 samples.

Results

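Nucleolar ribosome biogenesis factors are the proteins that transcribe ribosomal RNA, cut and modify it, and fold it onto ribosomal proteins. The 40 genes described here were taken as a given list, matched by symbol to the gene names of the count tables, and each matched 1 of the 32285 gene identifiers in those tables. All 40 also had a mean of at least 5 CPM (UMIs of a gene per 1000000 UMIs of its library) over the libraries, as did 10600 genes in all. They were counted in mouse embryoid bodies, which are aggregates of differentiating embryonic stem cells, here of the R1 line. Each of 4 conditions was measured in 1 droplet library of 3′ ends of transcripts. Day 8 was represented by a culture kept in normoxia for 8 d and by a culture kept for 7.33 d in normoxia and then for 16 h in hypoxia. Day 10 was represented by a culture kept in normoxia for 10 d and by a culture kept for 8 d in normoxia and then for 48 h in hypoxia. No genotype or further agent distinguished the groups, and the labels do not state how much oxygen was supplied.

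Ribosome production starts in the nucleolus, where RNA polymerase I copies the repeated ribosomal DNA into a long precursor. Small nucleolar ribonucleoproteins guide the methylation and pseudouridylation of this precursor, the small subunit processome folds and cuts its 18S end, and a separate chain of assembly factors builds the 60S subunit around the remainder. The process is among the largest consumers of energy in a growing cell, its genes are classical targets of the transcription factor MYC, and it is generally most active in proliferating cells.

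In the libraries from hypoxia, most of these genes took a smaller share of the UMIs than in normoxia of the same day. At day 8 the log2 ratio was below 0 for 38 of the 40 (35 with TMM scaling, described below). It was also below 0 for 6659 of the 10600 genes of at least 5 CPM, without TMM. The largest difference among the members was that of the RNA helicase gene Ddx21. At day 10 the ratio was below 0 for 32 of the 40 members (24 with TMM), and without TMM for 7469 of the 10600 genes. The typical gene of the whole transcriptome was thus lower there as well. At day 8, 52.5% of members were at least 1.5-fold lower in hypoxia, against 10.1% of all genes (30% and 4.03% with TMM). At day 10 these shares were closer, at 52.5% and 44.3%, and were 12.5% and 24.95% with TMM. In the whole libraries Npm1 and Imp3 were higher in hypoxia on both days, although Npm1 was not higher in every class of cells. With 1 library in each condition there is no replicate, so no difference was tested and no p-value can be given. Intervals below are 95% intervals that cover counting error only.

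The kept cells numbered 2679 to 4616 in a library, and their UMIs summed to 62614780 to 84938732. At this depth a level of 3.18 CPM (Rrp12 in hypoxia at day 8, 248 UMIs) had an exact Poisson interval of 2.79 to 3.60 CPM. Libraries shared 0 to 5 cell barcodes in any pair. The median cell held 23058 UMIs in normoxia and 18839 in hypoxia at day 8, and 20332 and 12802 at day 10. Ribosomal protein genes took 30.7% of the UMIs in the 48 h hypoxia library against 19.4% to 21.7% in the others, and mitochondrial transcripts took 1.11% there against 2.01% to 4.05%. A level in CPM is a share of all UMIs, so these differences in composition enter every ratio. Scaling by TMM aims to centre most genes. It moved the median log2 ratio of all genes from -0.11 to 0.10 at day 8 and from -0.47 to 0.01 at day 10. Between ages this median moved from -0.08 to 0.04. At day 8 the typical gene thus lay about as far above 0 with TMM as below it without. The cells are labelled mESC, yet the 6 pluripotency markers summed to 17.8 CPM or less in each library and none reached a mean of 5 CPM. All 11 measured genes of a list of hypoxia-responsive genes were at least 1.5-fold higher in hypoxia on both days.

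The E-box CACGTG, the letters bound by MYC and related factors, was looked for in the promoter windows of the members, since MYC is the best known regulator of the group. The windows run from 250 bases before to 50 after the annotated gene start in the RefSeq table of build GRCm38.p6, and the motif reads the same on both strands. It was present in 8 of the 34 members that had an entry (23.5%), in 8.09% of all genes of the table and in 12.3% of the genes of at least 5 CPM. Npm1, Tcof1, Fbl, Rrp12, Bop1 and Rrs1 had no entry. The short stretches below show each occurrence 5′ to 3′ on the strand of the gene, with the motif in capitals.

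Imp4: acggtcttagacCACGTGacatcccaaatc
Mybbp1a: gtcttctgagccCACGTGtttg
Nop2: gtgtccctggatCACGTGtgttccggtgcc
Pes1: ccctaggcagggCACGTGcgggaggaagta
Pno1: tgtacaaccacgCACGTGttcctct
Utp20: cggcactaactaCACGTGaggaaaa
Utp4: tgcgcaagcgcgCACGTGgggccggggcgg
Wdr43: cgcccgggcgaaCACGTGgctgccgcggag

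The stretch of Imp4 lies at chr1:34439696-34439725 on the plus strand and begins its motif 121 bases upstream of the start. That of Nop2, at chr6:125131811-125131840 on the plus strand, begins it 60 bases upstream. In the other 6 the motif lay after the annotated start. The stretches of Pes1 (chr11:3963965-3963994), Utp4 (chr8:106893643-106893672), Wdr43 (chr17:71616220-71616249) and Mybbp1a (chr11:72441355-72441376) are on the plus strand, and those of Pno1 (chr11:17211540-17211564) and Utp20 (chr10:88826765-88826789) are on the minus strand. The 8 genes with the motif and the 26 without it had close median log2 ratios at day 8, -0.58 and -0.60. At day 10 the medians were -0.47 and -0.69, and with TMM 0.02 and -0.20. A match describes these letters only and does not show binding.

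At day 8, 21 of the 40 members (52.5%) were at least 1.5-fold lower in hypoxia, against 10.1% of all genes of at least 5 CPM. None was 1.5-fold higher, against 4.58% of all genes. The median log2 ratio of the members was -0.62, while that of all genes was -0.11. With TMM the count was 12 lower and 1 higher, against 4.03% and 9.48% of all genes, and 35 of the 40 were below 0. At day 10, 21 of the 40 members (52.5%) were again at least 1.5-fold lower in hypoxia, but so were 44.3% of all genes, and the members' share is near that background. Npm1, Imp3 and Gnl3 were at least 1.5-fold higher (7.5% of members, against 10.4% of all genes). The median was -0.64 for the members and -0.47 for all genes, and with TMM 5 were lower, 6 were higher and 24 were below 0, against 24.95% of all genes lower and 25.8% higher. These TMM shares are the background for the TMM counts of the gene groups given further on. The levels of all 40 members summed to 5234 CPM in normoxia and 4551 in hypoxia at day 8, and to 4701 and 5518 CPM at day 10. Npm1 alone set the direction of this sum at day 10: for the 39 other members the summed level was 3175 CPM in normoxia and 2053 in hypoxia at day 8, and 2559 and 1941 CPM at day 10. Ncl was the most abundant of the 39, at 870.4 and 518.6 CPM at day 8 and 630.4 and 303.6 at day 10. It therefore weighs most in each sum or share of the 39 members given below, and a sum without Ncl was not computed.

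**Figure D1:**
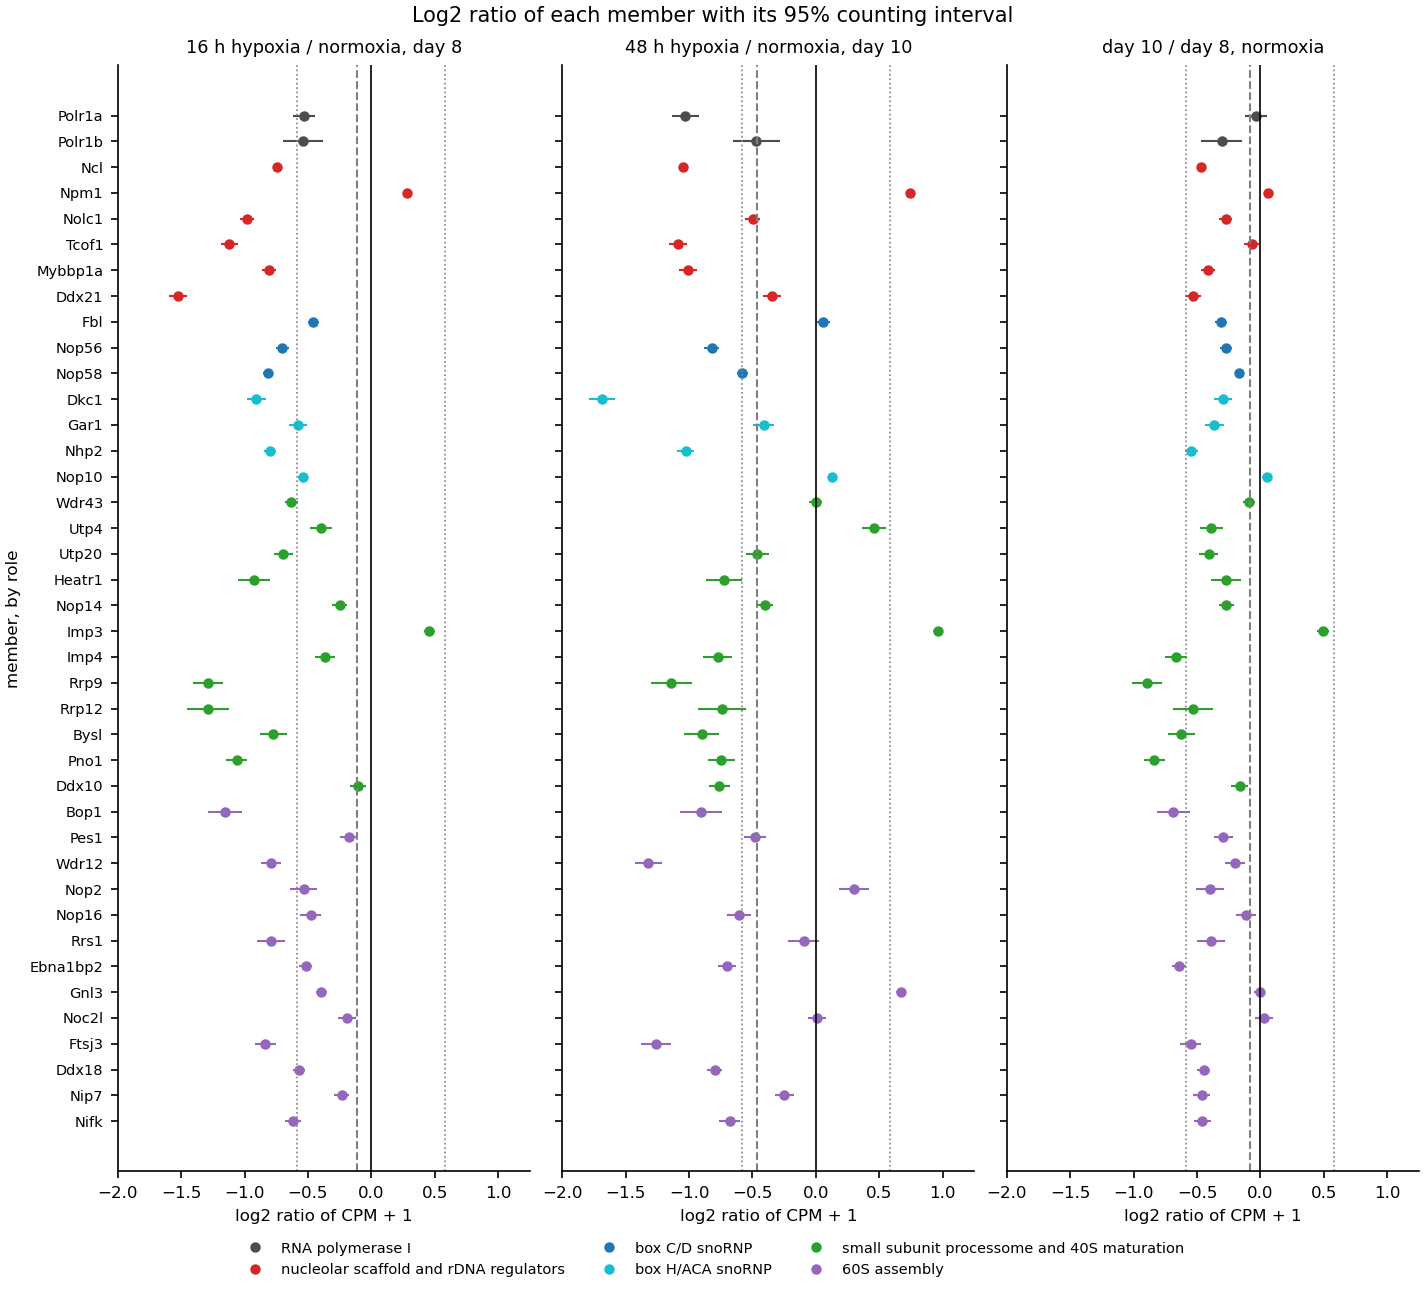
Log2 ratio of CPM + 1 for each of the 40 members (rows, coloured by role) in 3 comparisons, with 95% counting intervals; dotted lines mark 1.5-fold, the dashed line the median of all genes of at least 5 CPM. At day 8 all but Npm1 and Imp3 lie left of 0, although TMM scaling moves Ddx10, Pes1 and Noc2l to the right of it; at day 10 the points scatter around the dashed line.

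Of the 6 nucleolar scaffold proteins and regulators of ribosomal DNA, 5 were at least 1.5-fold lower in hypoxia at day 8 and 3 at day 10 (4 and 1 with TMM), against 10.1% and 44.3% of all genes. The 4 CPM values of a gene are given from here on in the order normoxia day 8, hypoxia day 8, normoxia day 10 and hypoxia day 10. Ddx21, a DEAD-box helicase that joins ribosomal DNA transcription to RNA processing, stood at 73.6, 24.95, 50.6 and 39.6 CPM. Its lowest value was therefore in the 16 h hypoxia library, 2.87-fold below normoxia (log2 ratio -1.52, interval -1.60 to -1.45), which was the largest difference of any member at day 8. At day 10 its log2 ratio was -0.34, and 0.15 with TMM, so that its direction there depends on the scaling. Tcof1 encodes treacle, a scaffold for RNA polymerase I and its upstream factor. It was at 67.2, 30.4, 64.0 and 29.6 CPM, and was thus at about the same level in both normoxic libraries and in both hypoxic ones (log2 ratios -1.12 and -1.09, and -0.90 and -0.60 with TMM).

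Nolc1, which shuttles small nucleolar ribonucleoproteins into the nucleolus, was at 92.5, 46.4, 76.4 and 53.8 CPM. The difference at day 8 (-0.98) passed 1.5-fold and that at day 10 (-0.50, and 0.00 with TMM) did not. Mybbp1a, a nucleolar co-regulator that binds MYB, was at 87.2, 49.3, 65.3 and 31.9 CPM. Ncl encodes nucleolin, the main RNA-binding protein of the nucleolus, and was at 870.4, 518.6, 630.4 and 303.6 CPM. Both were lower in hypoxia by more than 1.5-fold on each day, with log2 ratios of -0.81 and -1.01 for Mybbp1a and of -0.75 and -1.05 for Ncl.

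Npm1 went the other way. It encodes nucleophosmin, a histone chaperone that forms the outer layer of the nucleolus and exports ribosomal subunits. Its level was 2059, 2498, 2142 and 3577 CPM, highest in the 48 h hypoxia library. The log2 ratio was 0.28 (0.27 to 0.29) at day 8 and 0.74 (0.73 to 0.75) at day 10. In the same libraries the 83 cytosolic ribosomal protein genes had median log2 ratios of 0.13 and 0.51, with 26 at least 1.5-fold higher at day 10 (78 with TMM), against 10.4% of all genes (25.8% with TMM), and whether this bears on Npm1 was not tested. Npm1 has processed copies elsewhere in the genome, and the labels do not say how reads shared with them were counted.

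**Figure D2:**
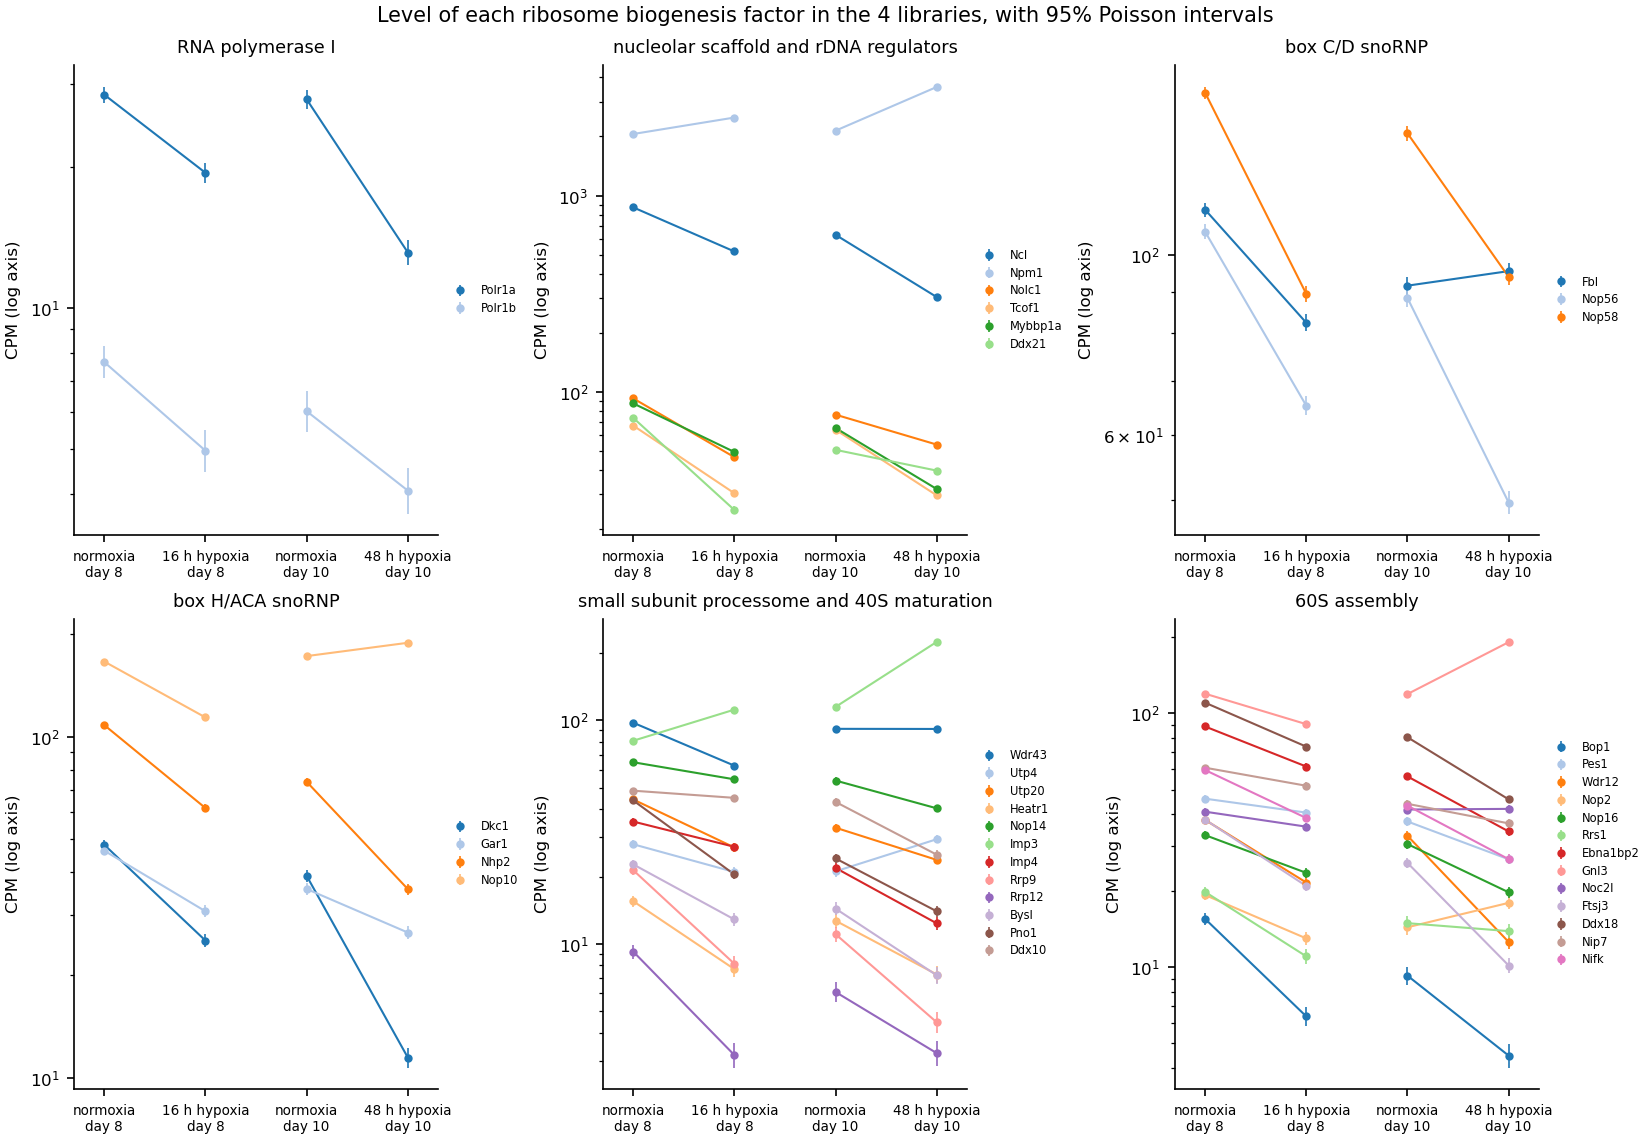
Level in CPM (log axis) of each member in the 4 libraries, in 1 panel per role, with exact 95% Poisson intervals; lines join normoxia and hypoxia of the same day. Most lines slope down on both days, while those of Npm1 and Imp3 slope up and those of Gnl3, Utp4, Nop2, Nop10 and Fbl slope down at day 8 and up at day 10.

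RNA polymerase I was represented by its catalytic core. Polr1a, the largest subunit, was at 28.5, 19.4, 27.9 and 13.1 CPM, and Polr1b, the second largest, at 7.66, 4.96, 6.02 and 4.07 CPM. Polr1a was 1.45-fold lower in hypoxia at day 8 and 2.04-fold lower at day 10, the latter past the threshold. Polr1b missed 1.5-fold on both days (-0.54 and -0.47). Of 13 other measured genes of the polymerase and its initiation factors, 2 were lower at day 8 and none higher, but none lower and 2 higher with TMM. At day 10, 6 were lower and 4 higher (4 and 5 with TMM), and the 6 of 13 are near the 44.3% of all genes. Ubtf, the upstream binding factor that opens ribosomal DNA, was at 61.0, 36.5, 43.1 and 17.8 CPM and was lower on both days (-0.73 and -1.23). Rrn3, the initiation factor TIF-IA, was at 33.1, 22.8, 30.4 and 24.8 CPM (-0.52 and -0.28, the latter 0.20 with TMM). Polr1c, a subunit shared with RNA polymerase III, was at 36.6, 49.2, 39.05 and 83.2 CPM, and Taf1d, part of the promoter selectivity factor, at 111.3, 105.7, 135.1 and 335.5 CPM. The genes of this machinery therefore did not lie on 1 side at day 10.

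The box C/D ribonucleoprotein methylates ribosomal RNA. Nop58, a core scaffold of it, was at 158.2, 89.5, 141.0 and 93.9 CPM, and its partner Nop56 at 106.7, 65.2, 88.5 and 49.6 CPM. Both were at least 1.5-fold lower at day 8 (-0.81 and -0.70), and Nop56 also at day 10 (-0.82). Fbl, the methyltransferase fibrillarin, was at 113.6, 82.5, 91.6 and 95.4 CPM. It was below normoxia at day 8 (-0.46) and slightly above it at day 10 (0.06, interval 0.01 to 0.11), where its partner Nop56 was lower.

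Members of the box H/ACA ribonucleoprotein, which converts uridines to pseudouridines, differed among themselves in the same way. Dkc1, the pseudouridine synthase dyskerin, was at 48.2, 25.2, 39.1 and 11.5 CPM. Its log2 ratio at day 10, -1.69 (-1.79 to -1.58), or 3.22-fold lower in hypoxia, was the largest of any member on that day, and it was -1.21 with TMM. Nhp2, a core protein that contacts the guide RNA, was at 108.2, 61.8, 73.8 and 35.7 CPM and passed 1.5-fold on both days. Gar1, which helps release the modified RNA, was at 46.3, 30.8, 35.8 and 26.7 CPM and passed on neither day (-0.57 and -0.41, the latter 0.08 with TMM). Nop10, the small adaptor between dyskerin and Nhp2, was at 166.2, 113.9, 172.4 and 188.6 CPM, and was lower in hypoxia at day 8 (-0.54) and higher at day 10 (0.13). In 1 and the same 4-protein complex, the ratios at day 10 thus ran from -1.69 to 0.13.

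Small nucleolar RNA genes lie inside 6 members on the same strand in the GENCODE M21 annotation. There were 5 in Nop56, 4 in Nop58, 3 each in Ncl, Wdr43 and Gnl3, and 1 in Dkc1. Snord57, for example, lies at chr2:130278016-130278087 within Nop56 (chr2:130274430-130279313), and Snord70 at chr1:59691934-59692020 within Nop58 (chr1:59684971-59719044). The 6 host genes had a median log2 ratio of -0.72 at day 8 and the other 34 members one of -0.57. At day 10 the medians were -0.70 and -0.64. The 3′ assay counts the host transcripts only and says nothing of the small RNAs.

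Among the 12 factors of the small subunit processome and of 40S maturation, 7 were at least 1.5-fold lower at day 8, against 10.1% of all genes, and 7 at day 10, against 44.3%. With TMM the counts were 4 and 1, with 1 and 2 higher. Rrp9, a protein of the U3 ribonucleoprotein, was at 21.3, 8.13, 11.04 and 4.45 CPM. It was the only one of the 12 lower by more than 2-fold on both days (-1.29 and -1.14). Rrp12, which helps export both subunits, was at 9.23, 3.18, 6.08 and 3.24 CPM. Pno1, a partner of the last 18S cleavage step, was at 43.8, 20.4, 24.1 and 13.97 CPM. These 3 genes were at their highest in normoxia at day 8, and each was lower by more than 2-fold in hypoxia of that day.

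Heatr1, the vertebrate counterpart of the processome protein Utp10, was at 15.5, 7.70, 12.7 and 7.29 CPM. Bysl, a factor that binds the late 40S precursor, was at 22.7, 12.8, 14.4 and 7.22 CPM. Utp20, a large helical repeat protein of the processome, was at 44.2, 27.0, 33.1 and 23.7 CPM. Heatr1 and Bysl passed 1.5-fold on both days, Utp20 at day 8 only (-0.69, and at day 10 -0.46, or 0.02 with TMM). Wdr43, which joins polymerase I transcription to the processome, was at 97.5, 62.6, 91.5 and 91.4 CPM. It was lower at day 8 (-0.63) and at nearly the same level in both libraries of day 10, where TMM gives 0.50.

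Imp4, an RNA-binding protein of the U3 complex, was at 35.2, 27.2, 21.8 and 12.3 CPM, and the helicase gene Ddx10 at 48.4, 45.0, 43.1 and 25.03 CPM. Both passed 1.5-fold at day 10 only (-0.77 and -0.76), and Ddx10 was close to normoxia at day 8 (-0.10, or 0.12 with TMM). Imp3, the other small protein that holds U3 to the precursor, was at 81.0, 111.6, 114.8 and 224.3 CPM. It was lowest in normoxia at day 8 and highest in hypoxia at day 10, with log2 ratios of 0.46 and 0.96, opposite to Imp4 in each comparison. Utp4, a subunit of the first complex to join the precursor, was at 27.9, 20.9, 21.1 and 29.4 CPM (-0.40 and 0.46). Nop14 was at 64.9, 54.4, 53.7 and 40.4 CPM and passed on neither day.

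Among the 13 factors of 60S assembly, 5 were at least 1.5-fold lower at day 8, against 10.1% of all genes, and 7 at day 10, near the 44.3% of all genes. With TMM, 2 were lower on each day and 2 were higher at day 10. Bop1, Pes1 and Wdr12 encode the PeBoW complex, which is needed to process the precursor of 28S RNA. Bop1 was at 15.5, 6.39, 9.25 and 4.48 CPM, Wdr12 at 38.0, 21.5, 32.9 and 12.5 CPM, and Pes1 at 46.0, 40.6, 37.4 and 26.6 CPM. Bop1 (-1.16 and -0.90) and Wdr12 (-0.79 and -1.32) passed on both days, and Pes1 on neither (-0.18 and -0.48, or 0.04 and 0.01 with TMM). The members of this complex thus also differed among themselves by more than their counting intervals.

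Ftsj3, a methyltransferase of the 60S precursor, was at 38.1, 20.9, 25.7 and 10.1 CPM (-0.84 and -1.26). Nifk, which binds the proliferation marker Ki-67, was at 59.7, 38.6, 43.2 and 26.6 CPM (-0.61 and -0.68). Rrs1, which brings 5S RNA to the precursor, was at 19.8, 11.02, 14.9 and 13.8 CPM. It was lower at day 8 (-0.79), and at day 10 its interval included 0 (-0.22 to 0.02) and TMM gave 0.37.

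Ddx18, another DEAD-box helicase, was at 110.0, 73.8, 80.3 and 45.7 CPM. Ebna1bp2, an early assembly factor, was at 88.6, 61.6, 56.3 and 34.2 CPM, and Nop16 at 33.1, 23.5, 30.5 and 19.7 CPM. These 3 missed 1.5-fold at day 8 (-0.57, -0.52 and -0.48) and passed it at day 10 (-0.80, -0.70 and -0.61). The GTPase gene Gnl3, or nucleostemin, known from stem cells, was at 119.3, 90.5, 118.9 and 190.4 CPM. It was lower in hypoxia at day 8 (-0.39) and 1.60-fold higher at day 10 (0.67). Nop2, a cytosine methyltransferase of 28S RNA, was at 19.2, 13.0, 14.3 and 17.9 CPM (-0.53 and 0.30). Noc2l and Nip7 passed on neither day, and Noc2l at day 10 was at 42.0 CPM in hypoxia and 41.7 in normoxia.

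Across both hypoxia comparisons, which use separate libraries, 15 members were at least 1.5-fold lower on both days, against 7.79% of all genes. These were Ncl, Tcof1, Mybbp1a, Nop56, Dkc1, Nhp2, Heatr1, Rrp9, Rrp12, Bysl, Pno1, Bop1, Wdr12, Ftsj3 and Nifk. With TMM, the members past the threshold on both days were Tcof1, Dkc1, Rrp9 and Ftsj3 (10%). The share of all genes was not computed with TMM, so this count has no background. Without TMM, a further 6 members passed at day 8 only, against 2.26% of all genes, and 6 at day 10 only, against 36.5%. Fbl, Nop10, Utp4, Nop2 and Gnl3 had intervals below 0 at day 8 and above 0 at day 10 without TMM (12.5% of members, against 7.28% of all genes). Ratios of opposite sign on the 2 days, in either order, were found for 15% of members and 30.7% of all genes. The 16 h and 48 h libraries differ in age as well as in the length of hypoxia, and these cannot be told apart.

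**Figure D3:**
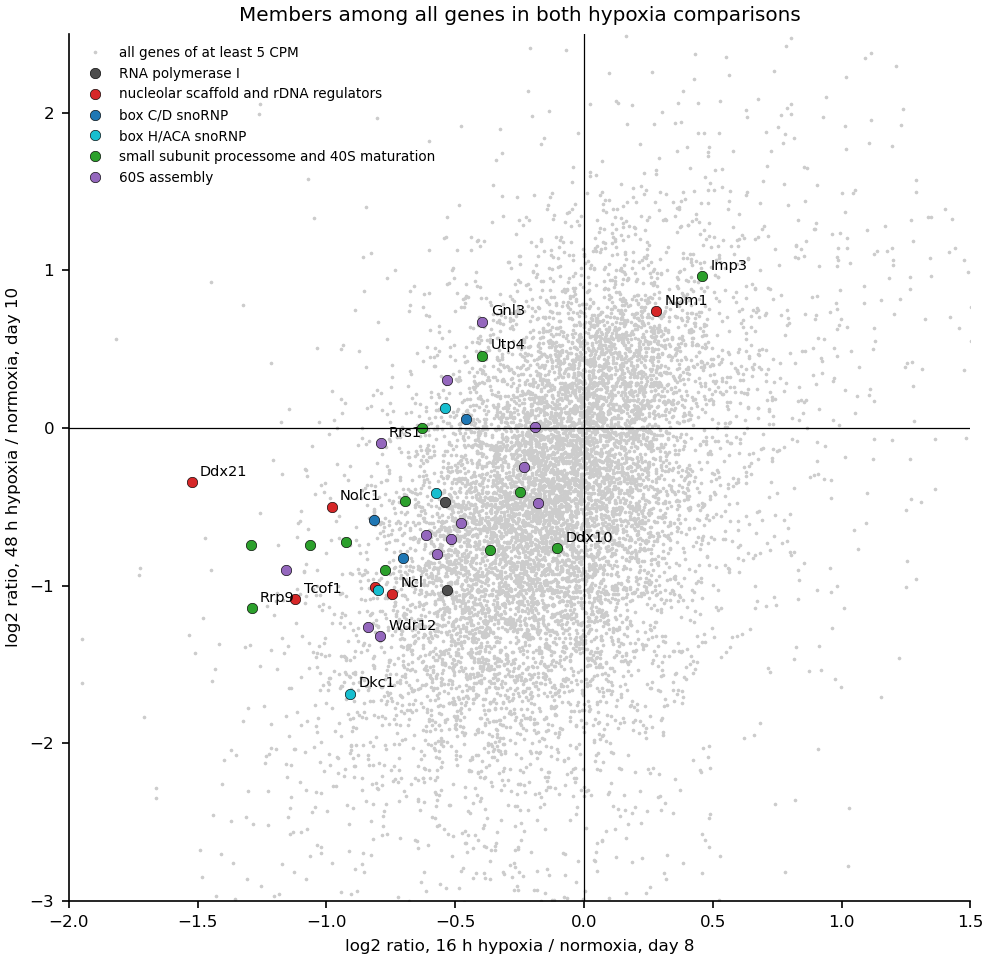
Log2 ratio of CPM + 1 in hypoxia against normoxia at day 8 (horizontal) and at day 10 (vertical) for all genes of at least 5 CPM (grey; genes beyond the axes are not drawn) and the 40 members, coloured by role. Ddx21 lies farthest left at -1.52, Dkc1 lowest at -1.69, and Npm1 and Imp3 lie above 0 on both axes.

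Between the normoxic libraries, 6 members (15%) were at least 1.5-fold lower at day 10 than at day 8, against 8.11% of all genes, and none was higher, against 7.93%. The 6 were Rrp9 (-0.89), Pno1 (-0.84), Bop1 (-0.69), Imp4 (-0.67), Ebna1bp2 (-0.64) and Bysl (-0.62). With TMM 2 members were lower and 1 was higher, against 5.15% and 10.7% of all genes, so the count lower was near that background. The median was -0.34 for the members and -0.08 for all genes. Imp3 had the highest ratio, 0.50. This comparison shares 1 library with each of the hypoxia comparisons. Over the 4 libraries, 34 of the 40 members (85%) were at their highest in normoxia at day 8, against 40.4% of all genes. In the 48 h hypoxia library 26 (65%) were at their lowest, near the 61.3% of all genes, and in the 16 h hypoxia library 12 (30%), against 12.1%.

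Per cell, the 39 members other than Npm1 were lower in hypoxia than in normoxia of the same day when every cell was thinned to 5000 UMIs. They gave a mean of 14.6 UMIs (median 13) in normoxia and 9.73 (median 9) in hypoxia at day 8, and 12.02 (median 11) and 9.92 (median 9) at day 10. Npm1 alone gave a mean of 10.2, 13.2, 11.1 and 19.3 UMIs. With it, all 40 members gave 24.8 and 22.9 UMIs at day 8 and 23.1 and 29.2 at day 10, so their sum was higher in hypoxia on the later day. Between 70 and 619 cells of a library were too shallow to be thinned. Counts of thinned cells are still shares of a cell's UMIs, so differences in composition enter them too. In the summed thinned cells the median log2 ratio of all genes was -0.11 at day 8 and -0.51 at day 10. That of the members of at least 5 CPM was -0.65 and -0.59, so at day 10 it was close to that of all genes.

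Genes of S phase and of G2 and M phase differed between the same libraries. At day 8, 30 of 32 S phase genes and 10 of 41 G2 and M phase genes were at least 1.5-fold lower in hypoxia, against 10.1% of all genes. At day 10, 29 and 36 were, against 44.3%. With TMM the counts were 25 and 3 at day 8, against 4.03% of all genes, and 27 and 30 at day 10, against 24.95%. Rrm2, a ribonucleotide reductase subunit, was at 56.4, 18.5, 40.7 and 2.67 CPM, and Mki67, which encodes Ki-67, at 131.2, 87.0, 128.8 and 13.3 CPM. Cells with 15 or more UMIs of these lists among 5000 made up 55.6% of the cells in normoxia and 31.6% in hypoxia at day 8, and 33.3% and 10.4% at day 10. Cells were then set apart by this count, which gives ranges of a score and not cell types.

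In cells with 15 or more cell cycle UMIs, the 39 members gave a mean of 17.3 UMIs in normoxia and 11.4 in hypoxia at day 8, a log2 ratio of -0.60. At day 10 the means were 15.3 and 10.97 (-0.48), and the mean number of cell cycle UMIs in this range was 50.6 and 36.5, so the cells compared there were not matched for it. At day 8 these numbers were 44.9 and 45.8. In cells with 5 to 14 cell cycle UMIs the means were 11.6 and 9.32 at day 8 (-0.31) and 11.1 and 10.5 at day 10 (-0.08). In cells with 0 to 4 they were 9.14 and 8.30 at day 8 (-0.14) and 9.21 and 8.93 at day 10 (-0.04). The difference in the members between hypoxia and normoxia was thus widest in the cells with the most cell cycle UMIs on both days. No ratio of all genes was computed within these ranges, so the members' ratios have no background here. The number of cells at 4 or 5 cell cycle UMIs, next to the lower limit, was 210 to 1071 in a library, and that at 14 or 15 was 52 to 123. Npm1 was higher in hypoxia in each range. At day 8 its means in normoxia and hypoxia were 8.80 and 13.5 UMIs in the lowest range, 10.1 and 13.7 in the middle one and 10.5 and 12.1 in the highest, so the gap was widest in the lowest range. At day 10 they were 11.2 and 17.6, 11.7 and 20.6, and 10.3 and 19.7, with the widest gap in the highest range. How far the cell cycle accounts for the members' levels was not tested.

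**Figure D4:**
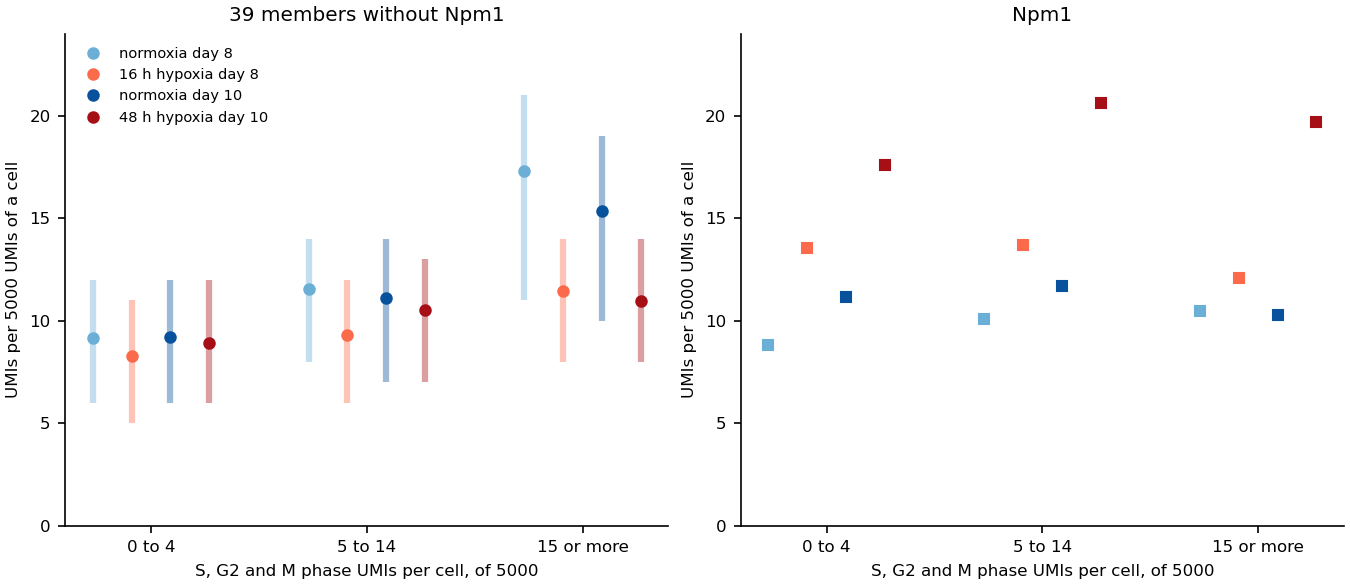
Mean UMIs per cell, after thinning to 5000 UMIs, of the 39 members without Npm1 (left; points, with bars from the lower to the upper quartile of cells) and of Npm1 (right) in cells with 0 to 4, 5 to 14 and 15 or more cell cycle UMIs in the 4 libraries. In the left panel the libraries lie between 8.30 and 9.21 in the lowest range and between 10.97 and 17.3 in the highest.

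The makeup of cells differed between the libraries. The 10 mesenchymal markers summed to 6822 and 6765 CPM at day 8 in normoxia and hypoxia, and to 8768 and 3699 at day 10. The 6 smooth muscle markers summed to 4118 and 5788 CPM at day 8 and to 1723 and 7380 at day 10, and the 10 erythroid markers to 4580 and 4604 CPM at day 8 and to 566.9 and 35.9 at day 10. Cells were clustered without the members and the related gene lists, and clusters were named from their markers. At day 10 the mesenchymal-like class held 1590 cells in normoxia and 3 in hypoxia, where most cells fell into clusters that could not be named, so the members could not be compared in it.

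At day 8 the mesenchymal-like class held 2280 and 2276 cells. The 39 members took 0.292% of its UMIs in normoxia and 0.196% in hypoxia, 18 of 39 measured members were at least 1.5-fold lower, against 12.6% of all genes, and the median log2 ratio was -0.56. Ddx21 again had the lowest ratio, -1.74. The class was not made of the same clusters in both libraries: of its larger clusters, 1 held 798 cells from normoxia and 50 from hypoxia, and another 20 and 875. In endoderm-like cells (193 and 138) the share was 0.348% and 0.245%, and 10 of 40 members were lower, against 12.1% of all genes, with Rrp9 (-1.25) and Ddx21 (-1.14) the lowest. In erythroid-like cells (109 and 149) it was 0.171% and 0.135%, with 18 of 38 lower against 29.0% of all genes. In pluripotent-like cells (50 and 55) it was 0.746% and 0.465%, with 19 of 40 lower against 15.3%, but their median depth was 9462 UMIs in normoxia and 3689 in hypoxia. Ddx21 was more than 2-fold lower in hypoxia in all 4 classes, at -1.23 in erythroid-like and -1.16 in pluripotent-like cells.

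At day 10, macrophage-like cells (165 in normoxia and 104 in hypoxia) were the only named class with 50 or more cells in both libraries. Their median depth was 21420 UMIs in normoxia and 12810 in hypoxia. The 39 members took 0.303% and 0.141% of their UMIs, and 32 of 39 measured members were at least 1.5-fold lower, against 32.5% of all genes, with a median of -0.94. Mybbp1a (-1.85), Dkc1 (-1.78) and Ftsj3 (-1.75) were the lowest. Gnl3, which was higher in hypoxia in the whole library, was at -0.94 here, and Npm1 was at -0.13. In the cells outside 7 small named classes (2413 and 4330, with mesenchymal-like, epicardial-like and unnamed cells together), 19 of 39 members were lower, against 42.7% of all genes, and Gnl3 was at 0.70. Between the normoxic libraries, macrophage-like cells at day 10 (165) had 37 of 40 members at least 1.5-fold lower than at day 8 (51 cells, 0.806% of UMIs), against 22.5% of all genes, at a median depth of 21420 and 37850 UMIs. In mesenchymal-like cells 13 of 40 were lower, against 14.5% of all genes. The count was 3 of 40, against 8.76%, when epicardial and smooth muscle markers were treated as mesenchymal in naming clusters (2182 cells at day 10). This added a cluster named from epicardial markers, with 202 cells at day 10 and 6 at day 8. It also added a cluster named from mesenchymal markers, with Mki67 and Tk1 among its top genes, that held 390 and 2. The cluster named from smooth muscle markers did not join. Endoderm-like cells had 3 of 40 lower and 2 higher, against 13.14% and 12.03% of all genes, and the median of the members was 0.08. None of these differences between classes was tested, since each rests on 1 library per condition.

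**Figure D5:**
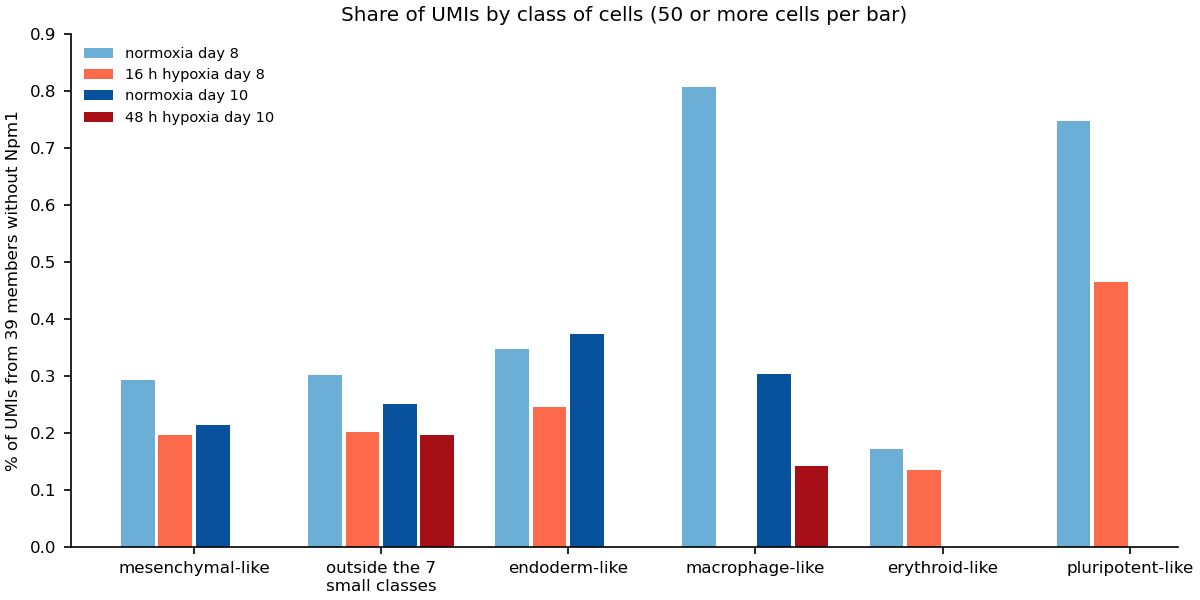
Percentage of a class's UMIs that came from the 39 members without Npm1, by class of cells and library; bars are drawn for 50 or more cells and there is no error bar, since each stands for 1 library. The bar of normoxia is above that of hypoxia of the same day in every class where both are drawn, and macrophage-like cells of day 8 in normoxia reach 0.806%.

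Other genes of the pathway, from wider lists, lay on the same side at day 8. Of 45 other 40S factors, 15 were at least 1.5-fold lower and none higher (median -0.42; 5 lower and 1 higher with TMM). Of 53 other 60S factors, 11 were lower and none higher (median -0.45; 2 lower with TMM). The share of all genes that were lower was 10.1%, and 4.03% with TMM, which the TMM count of the 60S factors was near. The TMM medians were -0.19 for the 40S and -0.23 for the 60S factors, against 0.10 for all genes. Mdn1, the giant ATPase that strips factors from the 60S precursor, had the lowest ratio of these 60S factors, at 36.6, 16.6, 32.2 and 22.0 CPM (-1.10). At day 10, 23 of the 40S factors were lower and 3 higher (median -0.59), and with TMM 7 were lower and 6 higher (median -0.12). Of the 60S factors 21 were lower and none higher (median -0.43), while with TMM 4 were lower and 12 higher (median 0.07). Neither count stood clear of the 44.3% of all genes that were lower. Nob1, the nuclease that makes the final cut of 18S RNA, was among the higher, at 29.3, 32.0, 23.1 and 56.8 CPM. Its partner Pno1 was lower on both days.

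The nuclear exosome, which trims the ends of the precursor, had 3 of 13 measured genes lower at day 8 and 9 at day 10 (medians -0.38 and -0.69), against 10.1% and 44.3% of all genes, and none and 4 with TMM. The chaperones that assemble small nucleolar ribonucleoproteins had 1 of 9 lower at day 8 and 6 at day 10 (medians -0.39 and -1.05), and none and 4 with TMM. Shq1, the chaperone of dyskerin, was at 11.5, 8.53, 9.84 and 4.18 CPM, and Znhit3, which acts on box C/D particles, at 31.8, 23.1, 25.6 and 6.70 CPM. Both were thus lowest in the 48 h hypoxia library, as Dkc1 and 61.3% of all genes were.

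The MYC network was measured by 9 genes. Myc was at 9.22, 6.16, 6.79 and 14.6 CPM, lower in hypoxia at day 8 (-0.51) and higher at day 10 (1.00). Mycn was at 11.8, 16.8, 13.3 and 7.16 CPM, with the reverse order (0.48 and -0.81). Mxi1, which encodes a MAX partner that opposes MYC, was at 25.4, 106.4, 37.6 and 107.0 CPM and had the highest ratio of the list on both days (2.03 and 1.48). Of 19 MYC target genes outside the nucleolus, 8 were lower at day 8 and none higher, against 10.1% and 4.58% of all genes (3 lower and 1 higher with TMM). At day 10, 8 were lower, near the 44.3% of all genes, and 2 higher (median -0.17), while with TMM 2 were lower and 5 higher (median 0.33). Odc1, the first enzyme of polyamine synthesis, was at 189.0, 87.1, 78.9 and 51.5 CPM, and Cad, which starts pyrimidine synthesis, at 29.8, 14.1, 17.1 and 5.94 CPM. Both were highest in normoxia at day 8.

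Of the 40 members, 17 share bases with another annotated gene, in each case on the opposite strand. Bysl shares 361 bases with Ccnd3, which had a mean of 292.6 CPM, and Gnl3 shares 15 bases with Pbrm1 (189.9 CPM). The labels do not say whether the strand was used in counting, so a part of these members' UMIs could belong to the partner.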

How the data were processed

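Cells of embryoid bodies were captured with the 10x Genomics 3′ chemistry, 1 library per condition. The authors deposited UMI counts per gene and cell barcode (whole numbers, not normalized), made with Cell Ranger 7.1.0 and mm10, per the submitters' processing notes. A barcode was kept when it held 500 or more genes and mitochondrial UMIs made up 15% or less, and doublets were not removed. Counts were summed per library and divided by the total (CPM), and ratios are log2 of CPM + 1, with exact Poisson intervals for levels and exact conditional binomial intervals for ratios, carried to the same scale. A gene was counted as different at 1.5-fold; the background was formed by genes whose mean over the 4 libraries reached 5 CPM. Intervals cover counting error only. Clusters came from 2000 variable genes, 30 principal components and 15 neighbours with leidenalg 0.10.2 at resolution 1, and a class was used with at least 50 cells in each library. Other scalings were TMM (edgeR 4.0.16) and median-of-ratios size factors (DESeq2 1.42.0), used for scaling only. The scripts used Python 3.11.15, numpy 2.4.6 and scipy 1.17.1, and were tested on simulated data. Coordinates of genes are from GENCODE M21 (GRCm38, the build called mm10) and promoter sequences from RefSeq (GRCm38.p6).

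All members may be named; of each related list, up to 6 genes with the largest ratio in either hypoxia comparison, and Myc, Mycn, Ubtf and Rrn3. Members and lists were chosen with earlier results of these data known, so counts over them are descriptions.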

Additional observations from a re-analysis of the deposited data

Results flagged for a closer look

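In 5 members the log2 ratio of hypoxia to normoxia was below 0 at day 8 and above 0 at day 10, each with a counting interval that excludes 0. This is 12.5% of members, against 7.28% of all genes, and opposite signs in either order were found for 15% of members and 30.7% of all genes. The difference between the days was not tested, since each condition has 1 library. The ratio at day 10 minus that at day 8 was 1.07 for Gnl3 (-0.39 and 0.67), 0.86 for Utp4 (-0.40 and 0.46), 0.83 for Nop2 (-0.53 and 0.30), 0.67 for Nop10 (-0.54 and 0.13) and 0.52 for Fbl (-0.46 and 0.06). With TMM the 5 pairs kept these directions, from -0.17 and 1.17 for Gnl3 to -0.23 and 0.56 for Fbl. TMM also put Ddx21, Gar1, Wdr43, Utp20, Nop14, Rrs1 and Nip7 below 0 at day 8 and above 0 at day 10. Among these, Wdr43 was at -0.41 and 0.50, and Nip7 at -0.01 and 0.24. Which members show this pattern thus depends on the scaling, and the share of all genes that do so with TMM was not computed.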

How the results depend on the processing

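The median of the members stayed below 0 in the 3 comparisons under the 10 alternatives listed at the start and the 5 chosen after seeing the data, wherever a value could be computed. At day 8 it was -0.40 with TMM, -0.36 with median-of-ratios size factors, -0.52 with a pseudocount of 10 CPM and -0.51 relative to the median of all genes. At day 10 it was -0.16, -0.10 and -0.18 with TMM, size factors and relative to the median of all genes. Between ages it was -0.22 with TMM, -0.19 with size factors, -0.26 with the pseudocount, -0.25 with cells weighted equally, -0.25 relative to all genes and -0.50 in the mesenchymal-like class alone. Members at least 1.5-fold lower at day 8 numbered 12 with TMM and 9 with size factors, in place of 21, against 4.03% and 3.4% of all genes. At day 10 they numbered 5 with TMM, 4 with size factors, 12 with the pseudocount and 6 relative to all genes, in place of 21. In that order, the shares of all genes were 24.95%, 23.0%, 29.7% and 24.9%, so the members' counts were near or below them. Between ages they numbered 2 with TMM and with size factors, 1 with the pseudocount, 3 with a minimum of 20 CPM and relative to all genes, and 12 in the mesenchymal-like class alone, in place of 6. In that order, the shares of all genes were 5.15%, 4.6%, 3.99%, 6.48%, 6.01% and 14.45%. Treating epicardial and smooth muscle markers as mesenchymal when clusters were named gave 3, against 8.8% of all genes. Members higher at day 8 numbered 1 with TMM, size factors and in the mesenchymal-like class, with or without the added clusters. The shares of all genes were 9.48%, 10.8%, 5.71% and 5.75%. Between ages they numbered 1 with TMM, size factors and in the mesenchymal-like class alone, against 10.7%, 11.9% and 8.89%. At day 10 they numbered 6 with TMM, 7 with size factors and 6 relative to all genes, in place of 3, against 25.8%, 28.2% and 24.7%. No called ratio of a single member changed sign. Replicates could not be left out with 1 library per condition, and the mesenchymal-like class gave no value at day 10, where it held 3 cells in hypoxia. No paired analysis was possible because each condition has 1 library. Depth limited Rrp12 most, at 248 UMIs in hypoxia at day 8.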
